A study of Homo sapiens with 6 samples.

Results

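The genes described are the tubulins, the protein subunits of microtubules, and the kinesins whose symbol is KIF followed by a digit, motor proteins that move along microtubules. Their probes were taken by the symbol in the platform annotation, which had to begin with TUBA, TUBB, TUBG or KIF and a digit, or to be TUBA, TUBB, TUBD1 or TUBE1. This gave 60 of the 22184 probes on the array, for 53 of 16578 genes: 23 tubulin probes (21 genes, among them the pseudogene TUBA3FP) and 37 kinesin probes (32 genes). The samples were 6 bead arrays of RNA from SH-SY5Y, a human neuroblastoma cell line of the sympathoadrenal lineage. The vehicle dimethyl sulfoxide (DMSO) had been given to the cells of 3 arrays and atrazine, a triazine herbicide, to the cells of the other 3. No other agent or genetic change is named for either group, and dose and exposure time are not given in the sources used here. Nothing in the labels ties replicates to separate cultures, so the p-values rest on a spread between arrays that may be technical.

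Alpha- and beta-tubulin pair into the dimer that polymerises into microtubules, and gamma-tubulin seeds new microtubules at the centrosome. Delta- and epsilon-tubulin are known for their role at centrioles. Mammals carry many alpha and beta genes that differ in tissue: TUBB3 is a widely used neuronal marker, and TUBA1A and TUBB2B are prominent in developing neurons. Mitotic kinesins build, shorten and slide spindle microtubules or act in cytokinesis, and many of them are made late in the cell cycle. Axonal transport kinesins carry vesicles, mitochondria and other cargo toward the axon tip, although KIF5B and the KIF3 motors work in most cells.

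DNA upstream of the start of transcription is shown for the mitotic kinesins whose brightest tested probe passed the threshold used below after quantile normalization. These were KIF20A, KIF23 and KIF2C (higher in atrazine) and KIF15 and KIF20B (lower). It is also shown for TUBA1A and TUBB, tubulins called in opposite directions after that normalization. Some of these calls did not hold under other scalings, as given below. Each sequence is the 250 bases before the first start site that RefSeq lists for the gene (GRCh38.p14), 5′ to 3′ on the gene's strand. They are KIF20A at chr5:138178862-138179111 (plus strand), KIF23 at chr15:69414099-69414348 (plus strand), KIF2C at chr1:44739587-44739836 (plus strand), KIF15 at chr3:44761544-44761793 (plus strand), KIF20B at chr10:89701340-89701589 (plus strand), TUBA1A at chr12:49189081-49189330 (minus strand) and TUBB at chr6:30720102-30720351 (plus strand). Capitals mark CCAAT, the box bound by the factor NF-Y, TTTGAA or TTTAAA, the letters of the cell cycle genes homology region (CHR), and TTTCGCGC or TTTGGCGC, a binding sequence of E2F factors, each on either strand. In KIF15 the E2F and CHR letters adjoin without overlap.
KIF20A: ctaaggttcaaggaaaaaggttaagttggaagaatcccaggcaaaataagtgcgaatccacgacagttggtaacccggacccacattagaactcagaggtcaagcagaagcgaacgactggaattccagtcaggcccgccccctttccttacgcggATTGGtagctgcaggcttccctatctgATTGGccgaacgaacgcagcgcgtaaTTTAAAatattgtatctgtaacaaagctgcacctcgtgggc
KIF23: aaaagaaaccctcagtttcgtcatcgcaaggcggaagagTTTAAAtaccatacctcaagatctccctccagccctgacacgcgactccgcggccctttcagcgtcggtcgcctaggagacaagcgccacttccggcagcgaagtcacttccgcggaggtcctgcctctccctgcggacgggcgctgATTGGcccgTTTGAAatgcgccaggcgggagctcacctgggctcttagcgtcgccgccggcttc
KIF2C: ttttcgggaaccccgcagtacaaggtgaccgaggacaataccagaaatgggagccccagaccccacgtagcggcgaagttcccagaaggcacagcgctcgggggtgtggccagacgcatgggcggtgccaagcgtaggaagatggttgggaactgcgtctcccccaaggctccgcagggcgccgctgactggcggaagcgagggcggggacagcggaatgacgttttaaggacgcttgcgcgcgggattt
KIF15: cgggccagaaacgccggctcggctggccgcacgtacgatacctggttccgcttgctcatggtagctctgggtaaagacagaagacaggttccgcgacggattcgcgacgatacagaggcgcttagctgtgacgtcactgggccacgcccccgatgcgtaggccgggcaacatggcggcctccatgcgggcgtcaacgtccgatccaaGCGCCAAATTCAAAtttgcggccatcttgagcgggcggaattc
KIF20B: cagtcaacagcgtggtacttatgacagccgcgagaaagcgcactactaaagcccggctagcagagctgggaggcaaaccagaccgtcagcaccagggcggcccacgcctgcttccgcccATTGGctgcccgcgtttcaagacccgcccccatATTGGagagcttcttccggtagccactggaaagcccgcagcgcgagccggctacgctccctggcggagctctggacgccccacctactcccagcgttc
TUBA1A: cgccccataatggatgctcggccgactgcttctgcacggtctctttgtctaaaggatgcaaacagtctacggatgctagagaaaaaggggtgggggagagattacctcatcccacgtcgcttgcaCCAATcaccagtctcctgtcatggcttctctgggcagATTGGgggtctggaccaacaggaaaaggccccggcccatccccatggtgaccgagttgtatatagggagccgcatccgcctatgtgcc
TUBB: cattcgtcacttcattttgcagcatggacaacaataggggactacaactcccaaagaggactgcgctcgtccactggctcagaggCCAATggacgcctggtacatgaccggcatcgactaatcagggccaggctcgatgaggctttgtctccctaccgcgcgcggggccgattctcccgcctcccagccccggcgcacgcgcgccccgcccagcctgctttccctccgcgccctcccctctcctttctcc
KIF20A carried 2 CCAAT boxes and 1 CHR match, and KIF23 carried 1 CCAAT box and 2 CHR matches. KIF15 had 1 CHR and 1 E2F match and no CCAAT box, while KIF20B had 2 CCAAT boxes only and KIF2C none of the letters searched. With the first 50 bases after the start site included, KIF20B held 2 CHR matches and KIF2C 1. Matches thus occurred in promoters of kinesins called higher and of kinesins called lower after quantile normalization. Under median scaling KIF20A (-0.87) and KIF2C (-0.70) were called lower too. TUBA1A carried 2 CCAAT boxes and TUBB 1. Over the mitotic kinesins, 7 of 12 such windows held a CHR match (58.3%) and 8 a CCAAT box (66.7%). Over all 35116 windows of the promoter table the shares were 21.9% and 32%, and 0.968% held an E2F match. In the axonal transport kinesins, 1 of 10 windows held a CHR match and 4 a CCAAT box. These 10 windows were of 6 genes, KIF1A and KIF1B having several each and KIF5A none, while the 12 mitotic windows were of 11 genes. With the 50 bases after the start included, CHR matches were in 9 of the 12 mitotic windows (75%), 1 of the 10 axonal ones and 24% of all. A match is a run of letters, not a shown binding site.

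The arrays of the groups differed as wholes. Mean raw intensity was 532.2 to 939.1 in DMSO and 235.1 to 311.3 in atrazine, and the share of probes above background (detection p-value under 0.05) was 58.9% to 59.8% and 43.6% to 52%. Of the 60 tubulin and kinesin probes, 45 to 47 were above background on a DMSO array and 35 to 39 on an atrazine array. Atrazine replicate 2 stood apart: across probes it correlated at 0.963 and 0.968 with the other atrazine arrays, which correlated at 0.994 with each other. Sympathoadrenal markers were above background on all 6 arrays for 11 of 12 genes (HAND2 on none), and their summed linear level was 40165 to 45414 in DMSO and 27259 to 28782 in atrazine. Of 10 markers of mesenchymal-type neuroblastoma cells, 3 were above background on all arrays and 3 on none (NOTCH2, FN1, YAP1), with sums of 5490 to 6537 and 9381 to 9734. Of 8 leukocyte markers 0 were above background on all arrays and 4 on none (CD3E, TYROBP, ITGAM, CD14), with sums of 261 to 272 and 547 to 587. Epithelial markers, of which KRT18 alone was above background on all arrays, summed to 238 to 263 and 285 to 311, and erythroid markers, with HBA1 and HBB on none, to 93 to 98 and 131 to 189. Single markers went both ways by the test used below. Of 11 sympathoadrenal probes 3 were called higher and 6 lower, beside 27.7% and 39.6% of all probes tested. Of 7 mesenchymal-type probes 4 were called higher and 2 lower, or 3 and 3 with scaling by array medians. The part of these shifts of arrays and markers in the results below was not tested.

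After quantile normalization, tubulin and kinesin probes were called higher and lower in nearly equal numbers, some of them through a filter that favours 1 direction. Of the 45 probes tested, 13 were higher in atrazine, 14 lower and 18 did not pass the threshold (limma with Benjamini-Hochberg adjustment over all 12969 probes tested, adjusted p under 0.05). The 27 calls stand beside 67.3% of all tested probes that were called, 27.7% higher and 39.6% lower. DMSO and atrazine arrays did not overlap for 33 of the 45, where 75% of all probes did not overlap. Calls with a change of at least 1.5-fold numbered 19, beside 48.2% of all probes. A probe was tested where it was above background on all 3 arrays of at least 1 group, so the tested probes are not all members. Of the rest, 12 were above background on no array, and KIF12, KIF1C and a second probe of KIF25 on 1 or 2 DMSO arrays. Where a probe was tested through 1 group only, the filter favours a higher value in that group. TUBA1C, TUBD1, TUBA3FP, KIF24 and 1 probe each of KIF27 and KIF23, all called lower, were tested through DMSO only. KIF17, called higher, was tested through atrazine only. With detection p under 0.01 required on all 6 arrays, 10 of 28 member probes were higher and 7 lower, beside 2103 and 1882 of all 6178. The median log2 change, atrazine minus DMSO, was -0.14 over the members tested and -0.18 over all probes. Tubulins counted 7 rises and 4 falls among 18 tested probes (median -0.09), and kinesins 6 and 10 among 27 (median -0.19).

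Directions depended on how the arrays were scaled. Quantile normalization, used here, placed the median change of all probes at -0.18, scaling by array medians at -0.90 and scaling to housekeeping genes at 0.01. Under median scaling 4 tubulin and kinesin probes were higher and 32 lower, beside 15.3% and 68.5% of all probes. The same call under these 3 scalings was found for 4 of the 13 rises, which were both probes of TUBA3E, KIF5A and KIF17. With no scaling between arrays KIF5A alone of them was called (0.85, adjusted p = 0.0221). Under housekeeping scaling the rises of KIF2C (0.20), KIF20A (0.034), KIF5B (0.22), TUBG1 on probe a (0.20) and TUBB4B (0.39) did not pass. The same call under the 3 scalings was found for 8 of the 14 falls, which were TUBD1, KIF3B, KIF3C, KIF7, KIF15, KIF20B and 2 probes of KIF1B. KIF17 was tested through atrazine only and TUBD1 through DMSO only, which favours their directions under any scaling. These 2 counts were not made over all probes, most of which were lower under median scaling, so neither is read as a trait of the members. Tubulin genes are similar in sequence and the probes' sequences were not used here, so signal from a paralogue cannot be told apart from that of the named gene.

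**Figure D1:**
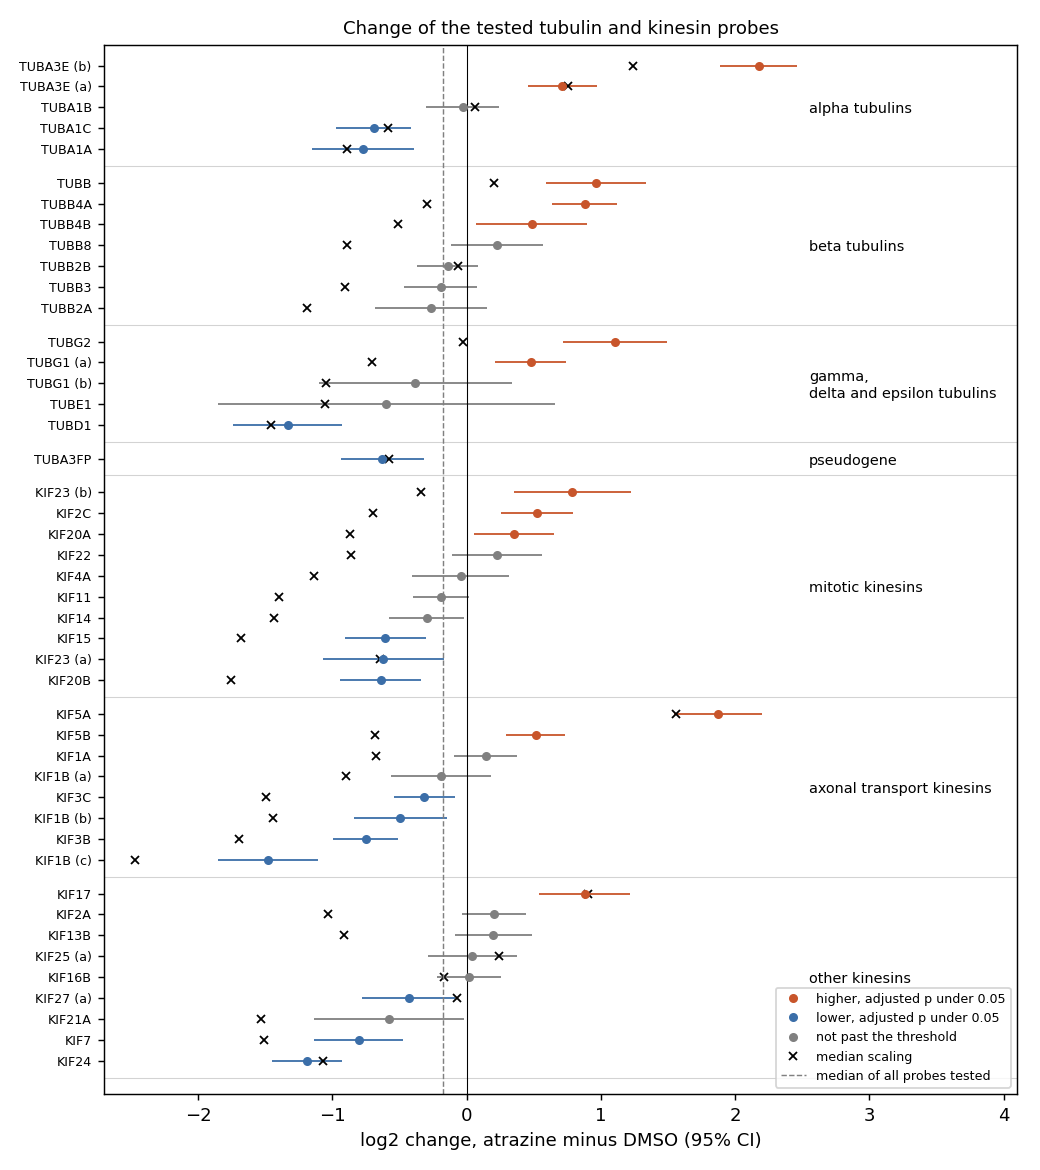
Log2 change, atrazine minus DMSO, of the 45 tested tubulin and kinesin probes by role; points and bars are estimates with 95% confidence intervals after quantile normalization, crosses the estimates after median scaling, and the dashed line the median of all probes (-0.18). Bracketed letters tell apart probes of a gene. TUBA3E (b) and KIF5A lie far to the right under both scalings and KIF1B (c) far to the left.

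Among the alpha-tubulins, TUBA3E rose under all 3 scalings but not without scaling, while TUBA1A and TUBA1C were called lower after quantile and median scaling and not under housekeeping scaling (adjusted p = 0.952 and 0.11). The TUBA1 genes are neighbours on chromosome 12, in the order TUBA1B, TUBA1A, TUBA1C with no other protein-coding gene between them. TUBA1A (ILMN_1742981), the main alpha-tubulin of developing neurons, read 14.14, 14.27 and 13.92 in DMSO and 13.38, 13.06 and 13.59 in atrazine (log2 intensity, as for all levels below). The groups did not overlap, atrazine being lower, with a log2 change of -0.77 (SE 0.16, adjusted p = 0.00421 by limma). TUBA1B (ILMN_1800261), a broadly expressed alpha-tubulin, read 14.16, 13.96 and 14.19 in DMSO and 14.03, 13.96 and 14.22 in atrazine. Here the groups overlapped, and the change was -0.03 (95% confidence interval -0.31 to 0.24), but 0.97 and past the threshold under housekeeping scaling (adjusted p = 0.000111).

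TUBA1C (ILMN_1663388), also broadly expressed, was dim, with 6.24, 5.99 and 5.95 in DMSO and 5.43, 5.24 and 5.44 in atrazine. It was above background on 3 DMSO arrays and on 0 atrazine arrays, and was at least 1.12-fold lower in atrazine (adjusted p = 0.0017). Such a bound, taken after quantile normalization, sets the DMSO mean against the higher, on each atrazine array, of the probe's own value and the lowest value of a probe above background. TUBA3E, an alpha-tubulin known from testis, has 2 probes annotated to the same transcript. Probe b (ILMN_1712147) read 7.0, 6.78 and 6.68 in DMSO and 8.87, 9.11 and 9.0 in atrazine, a rise of 2.18 (SE 0.12, adjusted p = 1.37e-05) that was the largest among the members after quantile normalization. It was 1.24 under median and 2.15 under housekeeping scaling, where KIF5A rose more, and 0.53 with no scaling (adjusted p = 0.157). Probe a (ILMN_1652464) read 5.37, 5.37 and 5.53 in DMSO and 6.14, 6.26 and 6.01 in atrazine, a rise of 0.71 (SE 0.11, adjusted p = 0.000976) that was 0.04 with no scaling (adjusted p = 0.915). Neither probe's groups overlapped, and within arrays the change of b exceeded that of a by 1.46, or 0.49 with median scaling (two-sided exact permutation p = 0.1 for both, the smallest that 3 against 3 arrays allow). The pseudogene TUBA3FP read 6.31, 5.97 and 5.96 in DMSO and 5.32, 5.54 and 5.51 in atrazine, without overlap. It was above background on 0 atrazine arrays and was at least 1.14-fold lower, a call that did not hold under housekeeping scaling (adjusted p = 0.121). TUBA4A, TUBA4B and TUBA8 were above background on no array.

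Of the 7 tested beta-tubulin probes, 3 rose (TUBB, TUBB4A, TUBB4B), 0 fell and 4 did not pass (TUBB2A, TUBB2B, TUBB3, TUBB8), whereas under median scaling 0 rose and 4 fell. Relative to the median of all probes the list's median was 0.40 after quantile and 0.38 after median scaling. TUBB (ILMN_1665583), the beta-tubulin of most dividing cells, read 11.98, 11.57 and 11.93 in DMSO and 12.66, 13.04 and 12.67 in atrazine. The groups did not overlap, and the rise was 0.97 (SE 0.16, adjusted p = 0.00133), which was 0.20 and not past under median scaling. Within arrays the change of TUBB exceeded that of TUBA1A by 1.74, and by 1.09 with median scaling (two-sided exact permutation p = 0.1 for both). After quantile normalization both genes' groups lay apart in opposite directions, which fixes that p at 0.1, so it adds nothing to the 2 calls.

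TUBB4B (ILMN_1780769), a broadly expressed beta-tubulin, read 11.39, 10.85 and 11.06 in DMSO and 11.43, 11.86 and 11.46 in atrazine. DMSO replicate 1 nearly met the lowest atrazine array, and the rise of 0.48 (adjusted p = 0.0425) turned to -0.51 under median scaling. The call held without DMSO replicate 1 (adjusted p = 0.0216) and was lost without any other 1 array, at adjusted p of 0.0553 to 0.133, and with no filter on dim probes (adjusted p = 0.0654). TUBB4A (ILMN_1682459), a beta-tubulin of brain, read 8.26, 8.24 and 8.40 in DMSO and 9.29, 9.09 and 9.17 in atrazine. All atrazine arrays were higher, and its rise of 0.88 (SE 0.10, adjusted p = 0.000287) turned to -0.30, not past, under median scaling.

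TUBB3 (ILMN_1791726), the neuronal beta-tubulin, read 12.91, 12.60 and 12.73 in DMSO and 12.53, 12.67 and 12.48 in atrazine. The groups overlapped and the change was -0.19 (95% confidence interval -0.47 to 0.08). TUBB2B (ILMN_1680874), of developing neurons, read 14.06, 14.10 and 14.03 in DMSO and 13.92, 14.02 and 13.82 in atrazine. All its atrazine arrays were slightly lower, but the change of -0.14 (interval -0.37 to 0.09) did not pass, and it was 0.84 and past under housekeeping scaling (adjusted p = 0.000416). Its neighbour on chromosome 6, TUBB2A (ILMN_1343292), read 11.62, 11.76 and 11.63 in DMSO and 11.62, 11 and 11.60 in atrazine. Atrazine replicate 2 alone was low, and the change was -0.27 (interval -0.68 to 0.15) with it and -0.06 without it. Under median scaling TUBB3 gave -0.91 and TUBB2A -1.19, both past the threshold, and TUBB2B -0.07. With array weights TUBB3 (-0.22, adjusted p = 0.0447) and TUBB8 (0.34, adjusted p = 0.0182) passed as well. TUBB8 changed by 0.23 (interval -0.12 to 0.57) and passed without DMSO replicate 1 (0.36, adjusted p = 0.0456). TUBB1, the beta-tubulin of platelets, and TUBB6 were above background on no array.

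The gamma-tubulin genes TUBG1 and TUBG2, neighbours on chromosome 17, rose after quantile normalization on 1 probe each, but gave -0.71 and -0.02 under median scaling. TUBG2 (ILMN_1701052) read 7.83, 7.90 and 8.12 in DMSO and 8.81, 9.38 and 8.98 in atrazine. The groups did not overlap, at a rise of 1.11 (SE 0.17, adjusted p = 0.000838). TUBG1 (ILMN_1695731, a) read 10.11, 10.03 and 10.20 in DMSO and 10.62, 10.72 and 10.42 in atrazine, again without overlap, at a rise of 0.48 (SE 0.11, adjusted p = 0.00757). The other TUBG1 probe (ILMN_1731858, b), annotated to the same transcript, read 7.22, 6.96 and 7.20 in DMSO and 7.20, 5.97 and 7.07 in atrazine and was above background on 2 of 3 atrazine arrays. Atrazine replicate 2 was the low one, and the change was -0.38 with it and 0.01 without it, not past either way, but -1.05 and past under median scaling. Within arrays the changes of the TUBG1 probes differed by 0.86, and by 0.34 with median scaling (two-sided exact permutation p = 0.1 and 0.4).

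Epsilon-tubulin, TUBE1 (ILMN_1764398), read 7.01, 7.20 and 6.89 in DMSO and 6.95, 5.02 and 7.32 in atrazine. Atrazine replicate 2 again lay far below its group, and the change was -0.60 (95% confidence interval -1.85 to 0.66) with it and 0.11 without it, but -1.06 and past under median scaling. Delta-tubulin, TUBD1 (ILMN_1749253), read 6.39, 7.02 and 6.81 in DMSO and 5.44, 5.23 and 5.54 in atrazine. It was above background on 0 atrazine arrays and was at least 1.79-fold lower (adjusted p = 0.00045). The call was also made under median and housekeeping scaling. TUBD1 was tested through DMSO only, so these calls add no support for its direction.

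**Figure D2:**
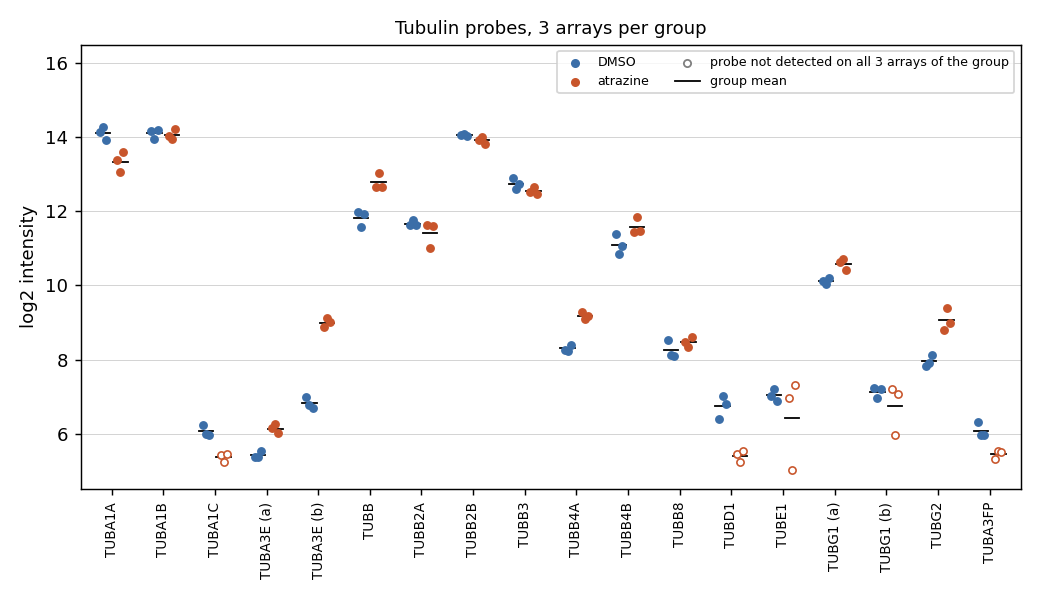
Log2 intensity of the 18 tested tubulin probes on each array after quantile normalization, DMSO in blue and atrazine in orange; black lines are group means, and open points mark a group in which the probe was not above background on all 3 arrays. TUBA3E (b), TUBB and TUBG2 sit higher in atrazine, TUBA1A and TUBD1 lower, and atrazine replicate 2 lies far below its group in TUBE1 and TUBG1 (b).

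Mitotic kinesins split evenly after quantile normalization, with 3 rises, 3 falls and 4 probes that did not pass among 10 tested, whereas under median scaling 0 rose and 9 fell. Relative to the median of all probes, the list's median was 0.06 after quantile and -0.11 after median scaling. In bulk RNA, fewer dividing cells and less RNA per dividing cell cannot be told apart. KIF2C (ILMN_1685916), a microtubule depolymerase at the centromere, read 9.58, 9.33 and 9.35 in DMSO and 10.01, 10.0 and 9.83 in atrazine. Every atrazine array was higher, and the rise of 0.53 (SE 0.11, adjusted p = 0.0048) turned to -0.70, past the threshold, under median scaling. KIF20A (ILMN_1695658), which acts in cytokinesis, read 9.82, 9.53 and 9.47 in DMSO and 9.97, 10.06 and 9.85 in atrazine. The groups nearly touched, and its rise of 0.35 (adjusted p = 0.0393) turned to -0.87 under median scaling. It lost its call without DMSO replicate 2 or 3 or atrazine replicate 1 or 2, at adjusted p of 0.0576 to 0.133.

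KIF15 and KIF20B fell under all 3 scalings. KIF15 (ILMN_1809440), a spindle motor that works beside KIF11, read 8.42, 8.49 and 8.36 in DMSO and 7.95, 7.57 and 7.93 in atrazine. The groups did not overlap, and the change was -0.61 (SE 0.13, adjusted p = 0.00446). KIF20B (ILMN_1712452), a kinesin of cytokinesis, read 8.82, 8.56 and 8.70 in DMSO and 8.04, 7.88 and 8.24 in atrazine. Its groups did not overlap either, at -0.64 (SE 0.13, adjusted p = 0.00333).

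KIF23, a subunit of the centralspindlin complex of the midbody, gave opposite calls on its 2 probes after quantile normalization only. The probes are annotated to different transcripts. Probe b (ILMN_1811472) read 8.28, 8.02 and 7.98 in DMSO and 9.01, 8.49 and 9.16 in atrazine, a rise of 0.79 (SE 0.19, adjusted p = 0.00713) that turned to -0.34, not past, under median scaling. Probe a (ILMN_1716553) read 6.13, 6.27 and 6.18 in DMSO and 5.40, 5.29 and 6.03 in atrazine and was above background on 1 of 3 atrazine arrays. Its change of -0.62 (SE 0.19, adjusted p = 0.0231) turned to 0.26, not past, under housekeeping scaling. That call was lost without any 1 DMSO array or atrazine replicate 1, at adjusted p of 0.058 to 0.0758. Under median scaling both probes had a negative change, a at -0.65 (adjusted p = 0.00306) and b at -0.34. Under housekeeping scaling both had a positive one, a at 0.26 and b at 0.56 (adjusted p = 0.0113). Within arrays the changes of the probes differed by 1.41, and by 0.30 with median scaling (two-sided exact permutation p = 0.1 and 0.3). The first p was fixed at 0.1, since after quantile normalization the groups of both probes lay apart in opposite directions.

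KIF11 (ILMN_1794539), the motor also called Eg5 that pushes spindle poles apart, read 9.20, 9.15 and 9.14 in DMSO and 9.0, 8.96 and 8.96 in atrazine. The arrays did not overlap, yet the change of -0.19 (95% confidence interval -0.40 to 0.02) did not pass, and it passed with -0.49 under housekeeping scaling and with no filter on dim probes (adjusted p = 0.0268). KIF14 (ILMN_1808071), a kinesin of cytokinesis, read 8.79, 8.73 and 8.64 in DMSO and 8.47, 8.23 and 8.57 in atrazine. Its arrays did not overlap either, and the change of -0.30 (adjusted p = 0.0567) passed with -0.54 under housekeeping scaling, and without atrazine replicate 3 (adjusted p = 0.0407). It also passed with no background correction, offset 50, the authors' processed intensities or a filter of detection p under 0.01 on all 6 arrays (adjusted p of 0.0436 to 0.0452). KIF22 (ILMN_1814589), a chromosome-bound motor, read 8.23, 7.78 and 7.96 in DMSO and 8.25, 8.34 and 8.05 in atrazine, an overlap with a change of 0.23 (interval -0.11 to 0.56). KIF4A (ILMN_1799667), a kinesin of chromosomes and the spindle midzone, read 8.55, 8.08 and 8.07 in DMSO and 8.05, 8.28 and 8.23 in atrazine. Its groups overlapped as well, at -0.05 (interval -0.41 to 0.32). Under median scaling KIF11, KIF14, KIF22 and KIF4A were all past the threshold and lower, at -1.44 to -0.86. KIF18A and KIF2B were above background on no array.

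Axonal transport kinesins gave 2 rises, 4 falls and 2 probes that did not pass among 8 tested after quantile normalization, and 1 rise and 7 falls with median scaling instead. Their median change relative to that of all probes was -0.08 after quantile and -0.28 after median scaling. KIF5A (ILMN_1812254), the neuronal kinesin-1 heavy chain, read 5.54, 5.44 and 5.57 in DMSO and 7.22, 7.67 and 7.27 in atrazine. This was a rise of 1.87 (SE 0.14, adjusted p = 3.78e-05) with no overlap, which was 1.56 under median and 2.46 under housekeeping scaling. KIF5B (ILMN_1788160), the kinesin-1 heavy chain of most cells, read 8.77, 8.77 and 8.64 in DMSO and 9.30, 9.20 and 9.23 in atrazine. It rose by 0.51 (SE 0.10, adjusted p = 0.00226) without overlap, but turned to -0.68, past the threshold, under median scaling. Within arrays the change of KIF5A exceeded that of KIF5B by 1.36, and by 2.25 with median scaling (two-sided exact permutation p = 0.1 for both). KIF5C, the remaining kinesin-1 heavy chain, was not analysed here.

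The KIF1B probes differed in size. KIF1B carries mitochondria and synaptic vesicle precursors, and its probes a and c are annotated to 1 transcript and b to another. Probe c (ILMN_1743034) read 8.80, 8.53 and 8.76 in DMSO and 6.99, 7.13 and 7.53 in atrazine, the largest fall among members above background on all arrays, at -1.48 (SE 0.16, adjusted p = 0.000182). Probe b (ILMN_1735552) read 11.46, 11.89 and 11.79 in DMSO and 11.36, 11.03 and 11.27 in atrazine, without overlap and at -0.49 (SE 0.15, adjusted p = 0.0206). Both falls passed under all 3 scalings, but that of b was lost without DMSO replicate 2 or 3, at adjusted p of 0.0666 to 0.0692. Probe a (ILMN_1659444) read 7.10, 7.13 and 6.80 in DMSO and 6.66, 6.68 and 7.11 in atrazine. Its groups overlapped, at -0.19 (interval -0.57 to 0.18), and under median scaling it passed with -0.90. Within arrays the changes of b and c differed by 0.99, and by 1.03 with median scaling (two-sided exact permutation p = 0.1 for both).

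KIF1A (ILMN_1759330), the neuronal carrier of synaptic vesicle precursors, read 11.89, 12.02 and 12.04 in DMSO and 12.09, 12.23 and 12.06 in atrazine. All atrazine arrays were slightly higher, but the change of 0.14 (interval -0.09 to 0.38) did not pass, and it was -0.67 and past under median scaling. KIF3B (ILMN_1702279), a motor subunit of kinesin-2, read 7.97, 7.86 and 7.99 in DMSO and 7.08, 7.30 and 7.17 in atrazine. The groups did not overlap, and KIF3B fell under all 3 scalings, here with a change of -0.75 (SE 0.10, adjusted p = 0.000574). KIF3C (ILMN_1797277), also a kinesin-2 subunit, read 9.14, 8.96 and 8.97 in DMSO and 8.73, 8.68 and 8.71 in atrazine. It too fell under all 3 scalings and without overlap, at -0.32 (adjusted p = 0.0222), though its call was lost without DMSO replicate 1 or atrazine replicate 1 or 3 (adjusted p of 0.0513 to 0.0634). KIF3A, the partner of KIF3B, was above background on no array.

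**Figure D3:**
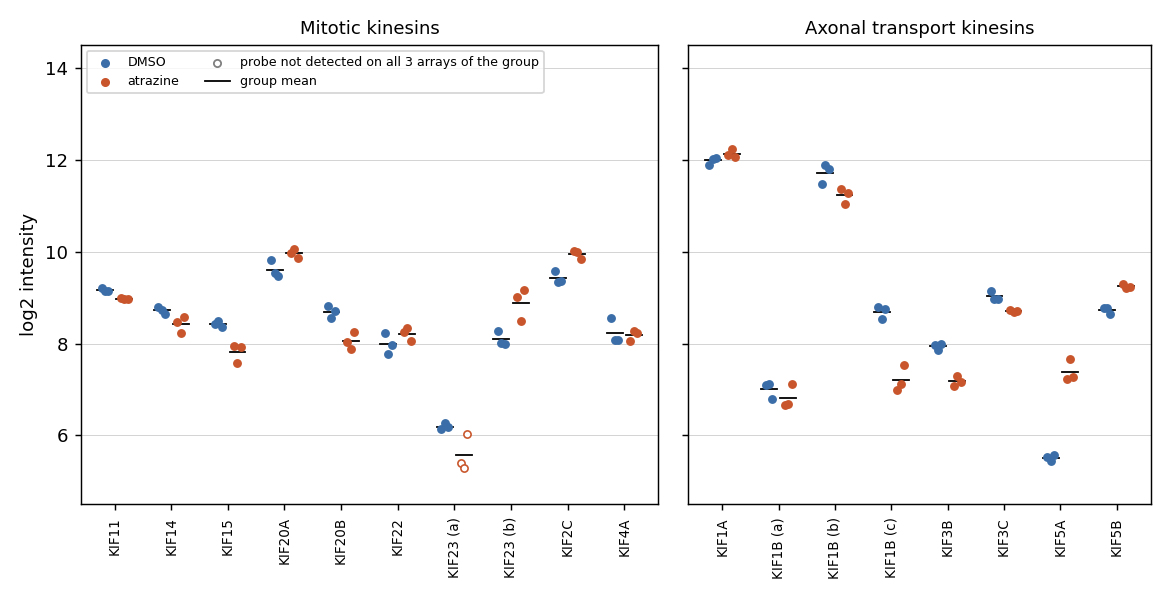
Log2 intensity of the 10 mitotic (left) and 8 axonal transport (right) kinesin probes on each array after quantile normalization, DMSO in blue and atrazine in orange; black lines are group means, and open points mark a group in which the probe was not above background on all 3 arrays. Both panels hold probes that are higher and lower in atrazine: KIF5A changes by 1.87, KIF1B (c) by -1.48, and the 2 probes of KIF23 move apart.

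Set against each other, the mitotic and axonal transport lists differed little. The median log2 change was -0.12 over the mitotic and -0.26 over the axonal probes, a difference of 0.14. Taken on single arrays, the gap between the list medians had a pooled SD within groups of 0.11. That SD is of single arrays and is not the error of the 0.14, which compares group means. No p-value is given for the 0.14, since the members were chosen with results known. On single arrays, the axonal probes' median difference from their DMSO means was 0.04, -0.01 and 0.05 in DMSO and -0.32, -0.34 and -0.12 in atrazine. The same median of the mitotic probes was 0.15, -0.07 and -0.07 in DMSO and -0.17, -0.08 and -0.08 in atrazine, so that the groups lay apart in both lists, in the mitotic one only narrowly. Over all probes it was -0.17, -0.17 and -0.16 in atrazine. The spread inside the lists was wider than the gap between them, from -0.64 to 0.79 for mitotic and from -1.48 to 1.87 for axonal transport kinesins.

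**Figure D4:**
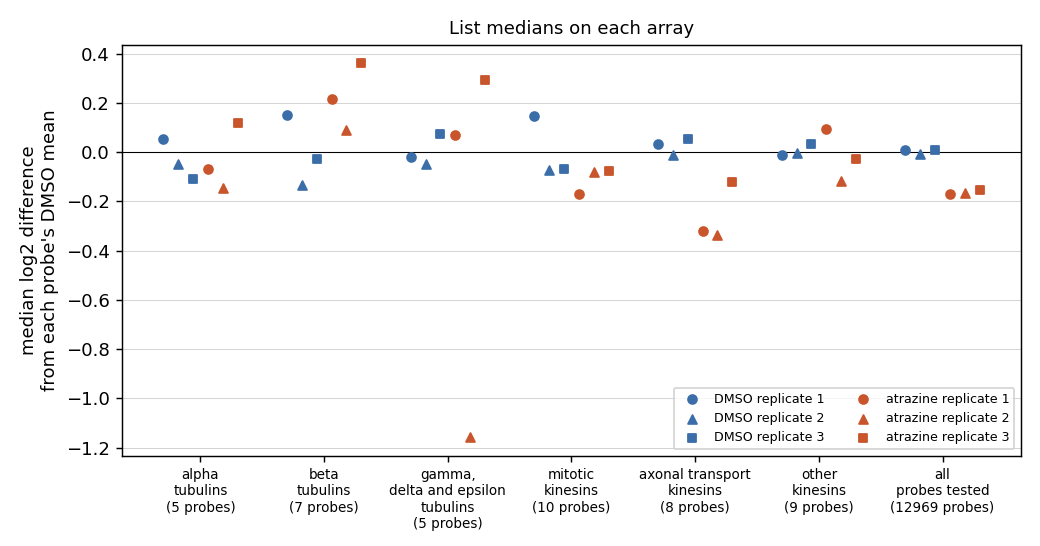
Median, over the tested probes of each list, of the log2 difference from the probe's DMSO mean on each of the 6 arrays (DMSO in blue, atrazine in orange, replicates by marker shape). Axonal transport kinesins sit at -0.32, -0.34 and -0.12 in atrazine, and in the gamma, delta and epsilon tubulins atrazine replicate 2 lies at -1.16, apart from 0.07 and 0.29.

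Of the 9 tested probes of other kinesins, 1 was called higher, 3 lower and 5 neither (1 higher and 5 lower after median scaling). KIF17 (ILMN_1666625), a motor of dendritic transport, read 5.28, 5.35 and 5.44 in DMSO and 6.13, 6.54 and 6.06 in atrazine and was above background on 2 of 3 DMSO arrays. It rose by 0.88 (SE 0.15, adjusted p = 0.00131) without overlap, and 0.91 was its value after median scaling. KIF17 was tested through atrazine only, which favours a rise. KIF7 (ILMN_1654916), a regulator of Hedgehog signalling at the cilium, read 7.39, 7.21 and 7.35 in DMSO and 6.27, 6.76 and 6.50 in atrazine. The groups did not overlap, and KIF7 fell under all 3 scalings, here at -0.81 (SE 0.14, adjusted p = 0.00181). KIF24 (ILMN_1694126), a kinesin of the centriole, read 6.46, 6.27 and 6.24 in DMSO and 5.21, 5.0 and 5.19 in atrazine. It was above background on 0 atrazine arrays and was at least 1.34-fold lower (adjusted p = 9.71e-05), but was not called under housekeeping scaling (adjusted p = 0.404).

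KIF27 was called lower on 1 of its 2 probes (adjusted p = 0.0335) but lay too near background in atrazine for a fold. Under housekeeping scaling this probe was called higher instead (0.83, adjusted p = 0.000893), although it was above background on 3 DMSO and 0 atrazine arrays. The lower call was also lost with median scaling (adjusted p = 0.71), with no background correction, offset 50 or the authors' processed intensities (adjusted p of 0.0504 to 0.0556), and without DMSO replicate 2 or 3 or atrazine replicate 1, at adjusted p of 0.0664 to 0.133. KIF21A (ILMN_1681249), which restrains microtubule growth, read 11.66, 11.72 and 11.76 in DMSO and 11.51, 10.54 and 11.36 in atrazine, with atrazine replicate 2 lowest. Its change of -0.58 (adjusted p = 0.0637) did not pass, but passed without atrazine replicate 1 (-0.74, adjusted p = 0.034) or 2 (-0.27, adjusted p = 0.0418). It also passed under median scaling (-1.54, adjusted p = 0.0015), housekeeping scaling (-0.63, adjusted p = 0.0144), array weights (-0.32, adjusted p = 0.0254) and detection p under 0.01 on all 6 arrays (adjusted p = 0.0484). KIF2A (0.21), KIF13B (0.20), KIF16B (0.02) and 1 probe of KIF25 (0.04) did not pass. Under median scaling KIF2A (-1.04) and KIF13B (-0.92) passed, and under housekeeping scaling KIF16B (0.73) and KIF25 (1.14). KIF6, KIF13A, KIF19 and the second KIF27 probe were above background on no array.

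Probes of a gene often differed elsewhere on the array too. In 954 genes with at least 2 tested probes, the changes of the 2 brightest correlated across genes at r = 0.22 (Spearman rho 0.23), a description over genes of the same 6 arrays. Where both were called, 277 of 432 pairs (64.1%) had 1 direction. Among tubulins and kinesins after quantile normalization, TUBA3E had 1 direction on both probes and KIF23 did not, while TUBG1 and KIF1B each had a probe that did not pass. All other members rest on 1 tested probe.

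Genes that work with tubulins and kinesins went both ways in all lists but the gamma-tubulin ring complex, where 0 rose. Their counts stand beside the 27.7% of all probes called higher and 39.6% lower, or 15.3% and 68.5% after median scaling. Among kinesin partners and kinesins outside the KIF numbering, 3 of 14 tested probes rose and 4 fell (0 higher and 10 lower after median scaling), and 4 calls were left without DMSO replicate 2. TRAK2, the adaptor that ties mitochondria to kinesin-1, went from 9.09 to 6.86 in the group means, a log2 change of -2.23 (SE 0.11, adjusted p = 8.59e-06), without overlap and at -3.18 under median scaling. KLC1, a kinesin light chain, rose by 1.12 on 1 probe (-0.09, not past, under median scaling) and gave -0.50 on its other. KIFBP, a kinesin-binding protein, changed by -0.50 (adjusted p = 0.0133).

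Of 14 tested probes of tubulin cofactors and prefoldin, 1 rose and 8 fell (0 higher and 13 lower after median scaling), with a median of -0.32, or -0.15 relative to all probes. TBCD, a cofactor of beta-tubulin, changed by -1.45 on 1 probe, which was above background on 1 of 3 atrazine arrays, and by -0.03 on the other. PFDN2, a prefoldin subunit, rose by 0.94 (-0.25, not past, under median scaling), and PFDN4 was called lower but lay too near background in atrazine for a fold. In the CCT chaperonin, the ring complex that folds tubulin and actin, 1 of 10 probes rose and 4 fell, near the 39.6% of all probes called lower (0 higher and 9 lower after median scaling), with a median of -0.67, or -0.49 relative to all probes. CCT5 changed by -1.17 and CCT4 by -0.75, while CCT2 rose by 0.45 (-0.18, not past, under median scaling). Without any 1 DMSO array 3 CCT probes were called.

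In the gamma-tubulin ring complex 0 of 8 probes rose and 2 fell (0 higher and 8 lower after median scaling), and 4 were called without atrazine replicate 2. TUBGCP5 (-1.78) and TUBGCP3 (-1.67), core subunits of the complex, were each above background on 2 of 3 atrazine arrays, and CDK5RAP2 (-0.34) did not pass. Of 15 probes of tubulin-modifying enzymes 3 rose and 2 fell (0 higher and 13 lower after median scaling), and 8 were called without atrazine replicate 2. The acetyltransferase ATAT1 rose by 0.76 on 1 probe (0.16, not past, under median scaling) and gave 0.50 and 0.20 on its others. The deacetylase HDAC6 rose by 0.66 but turned to -0.42, past the threshold, under median scaling. The tubulin carboxypeptidase VASH2 changed by -1.19 (adjusted p = 0.00122).

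Of 21 probes of dynein and dynactin, the motor toward the minus end and its activator, 3 rose and 3 fell (1 higher and 20 lower after median scaling). Without DMSO replicate 3 or atrazine replicate 3, 3 of them were called. ACTR10, a dynactin subunit, rose by 1.87 (SE 0.12, adjusted p = 1.89e-05; 0.72 after median scaling), whereas DYNLL1, a dynein light chain, changed by -1.08. DYNC1LI1 was called lower and lay too near background in atrazine for a fold. Of 41 probes of microtubule-associated proteins 7 rose and 16 fell (1 higher and 32 lower after median scaling). MAP6, a microtubule stabiliser, changed by -1.41 on 1 probe and gave 0.84 and -0.98 on its others. STMN1, which binds free tubulin, rose by 1.22 on 1 probe (0.05, not past, under median scaling) and gave -1.04 on the other. CKAP5, a microtubule polymerase, rose by 0.83 (-0.18, not past, under median scaling) and gave 0.40 on its other probe.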

How the data were processed

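Total RNA of SH-SY5Y cells was measured on 6 Illumina bead arrays, 3 with DMSO and 3 with atrazine, grouped by the treatment in the labels. The authors deposited raw intensity values and, per the file headers, a detection p-value for 22184 probes on each array. They also deposited processed intensity values, whose ranks equal the raw ones and whose median is the same on every array. Scanner software and its settings are not given in the sources used here. Of the probes, 19715 have 1 gene symbol in the platform annotation, 0 several and 2469 none, and 19695 could be linked to a current gene through their gene ID.

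Raw intensities were background-corrected with normexp from the detection p-values (offset 16) and quantile normalized to log2 values in limma 3.58.1 (R 4.3.3). Each probe was its own feature, and the 12969 probes with detection p under 0.05 on all arrays of a group were tested by lmFit and eBayes, two-sided, with Benjamini-Hochberg adjustment and a threshold of 0.05. Where a probe was above background nowhere in a group, the report gives a bound in place of a change. The fitted values of such probes still enter calls, medians, plots and the comparison of scalings, and their size is not interpreted. Differences between probes within arrays were compared by exact permutation. Only the fit per probe was tested on simulated data, drawn as normalized values with few probes changed. Background correction and scaling between arrays were not covered by it. Alternatives covered background, scaling, filters, probes per gene, variance, weights of arrays, a replicate block, left-out arrays and thresholds.

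The members and gene lists were chosen with earlier results of these data known. Named with values on every array were fixed tubulins and kinesins and the 5 largest rises and 5 largest falls; TUBB4A, TUBE1, KIF21A and TUBA3FP were added where their values bear on a group described. Up to 3 genes of smallest p were named in each related list. Promoter sequences are RefSeq's (GRCh38.p14), and 48 of 53 member genes matched by symbol or gene ID.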

Additional observations from a re-analysis of the deposited data

How the results depend on the processing

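Background correction, its offset, the authors' processed intensities, 1 probe per gene, an intensity trend with robust estimation and array weights reversed no member's direction; scaling and leaving out arrays did, and the cause was not tested. The difference between the mitotic and axonal medians (0.14 in the report) stayed between 0.04 and 0.21 over all alternatives. With detection p under 0.01 required on all 6 arrays, the counts were 3985 for all probes, 10 for members higher, 7 for members lower, 4 for kinesin partners, 0 for the gamma-tubulin ring complex, 2 for alpha tubulins, 3 for axonal transport kinesins and 1 for other kinesins. This filter left 6178 probes to test, 28 of them members, so these counts are out of smaller totals. With median scaling, the counts were 4 for members higher, 32 for members lower, 8 for the gamma-tubulin ring complex, 9 for CCT, 13 for tubulin-modifying enzymes and 21 for dynein and dynactin. Of all 12969 probes tested, 1979 were higher and 8880 lower with this scaling. With no scaling between arrays, the counts were 1 for members higher, 38 for members lower, 14 for kinesin partners, 8 for the gamma-tubulin ring complex, 14 for folding cofactors, 10 for CCT, 13 for tubulin-modifying enzymes, 20 for dynein and dynactin, 38 for microtubule-associated proteins, 2 for alpha tubulins, 6 for beta tubulins, 5 for gamma, delta or epsilon tubulins, 10 for mitotic kinesins and 7 for other kinesins. Of all 12969 probes tested, 338 were higher and 10009 lower with no scaling. These counts are therefore not read as a trait of the members or lists. With a change of at least 1.5-fold also required, the counts were 8 for members higher, 2 for kinesin partners, 3 for tubulin-modifying enzymes, 3 for dynein and dynactin and 3 for axonal transport kinesins. With the replicate block, the counts were 4 for kinesin partners and 3 for dynein and dynactin. At an adjusted p under 0.01, the counts were 3 for kinesin partners, 3 for CCT and 3 for dynein and dynactin. With housekeeping scaling, the counts were 4 for the gamma-tubulin ring complex and 8 for CCT. With array weights, the counts were 6 for the gamma-tubulin ring complex and 5 for beta tubulins. With no filter on dim probes, the counts were 3 for CCT. Leaving out 1 array at a time, the counts were 4 to 8 for kinesin partners, 2 to 4 for the gamma-tubulin ring complex, 3 to 6 for CCT, 4 to 8 for tubulin-modifying enzymes and 3 to 5 for dynein and dynactin, and the median difference 0.08 to 0.21. Over all probes, higher and lower calls were 2712 and 3543 with at least 1.5-fold and 2870 and 3785 at an adjusted p under 0.01. They were 4633 and 4228 with housekeeping scaling and 3968 and 5981 with array weights. With no filter they were 4964 and 5637 of 22184 probes. Leaving out 1 array, they were 3147 to 3942 and 4360 to 5542.

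Under median scaling the direction reversed for KIF16B (-0.17), TUBA1B (0.065), KIF13B (-0.92), KIF1A (-0.67), KIF2A (-1.04), KIF20A (-0.87), KIF22 (-0.86), KIF23 (b) (-0.34), KIF2C (-0.70), KIF5B (-0.68), TUBB4B (-0.51), TUBB4A (-0.30), TUBB8 (-0.89), TUBG1 (a) (-0.71) and TUBG2 (-0.024). With no scaling it reversed for KIF16B (-0.88), KIF13B (-1.63), KIF1A (-1.39), KIF2A (-1.75), KIF20A (-1.58), KIF22 (-1.57), KIF23 (b) (-1.06), KIF25 (-0.48), KIF2C (-1.41), KIF5B (-1.40), TUBB (-0.51), TUBB4B (-1.22), TUBB4A (-1.01), TUBB8 (-1.60), TUBG1 (a) (-1.42) and TUBG2 (-0.74). With housekeeping scaling it reversed for TUBA1B (0.97), KIF13B (-0.012), KIF1B (a) (0.001), KIF2A (-0.13), KIF23 (a) (0.26), KIF27 (0.83), TUBA3FP (0.32), TUBA1A (0.013), TUBA1C (0.32) and TUBB2B (0.84). Of these KIF27, TUBA3FP and TUBA1C were above background on 0 atrazine arrays, so the size of their fitted values is not interpreted. The bounds given for TUBA3FP and TUBA1C were taken after quantile normalization only. Leaving out 1 array, changes near 0 or resting on 1 array took either sign in KIF16B (-0.053 to 0.067), TUBA1B (-0.12 to 0.026), KIF25 (-0.074 to 0.14), KIF4A (-0.12 to 0.11), TUBE1 (-1.10 to 0.11) and TUBG1 (b) (-0.64 to 0.006).

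Deviations from the group means correlated at -0.17, -0.44 and -0.29 between same-numbered samples, and no sample correlated best with its own number. With 3 arrays per group and atrazine replicate 2 apart from the others, this cannot decide whether same-numbered samples belong together. The replicate block gave 3169 higher and 4429 lower calls over all probes and 11 and 11 among tubulins and kinesins. The 5 member calls past the threshold only without it were KIF1B (b) (adjusted p = 0.0603), KIF20A (adjusted p = 0.0724), KIF27 (adjusted p = 0.0725), KIF3C (adjusted p = 0.0731) and TUBB4B (adjusted p = 0.0936). Few arrays and dim signal over background limit the precision: 34 of 60 member probes were above background on all 6 arrays.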
